A study of Mus musculus with 8 samples.

Results

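The leptin receptor and the genes that carry and restrain its signal were examined in liver RNA of 8 mice. Of the 10 genes taken, *Lepr* was selected on its large difference between the diets in these same arrays, so its values are a description without a test. The other 9, *Leprot*, *Leprotl1*, *Jak2*, *Stat3*, *Socs3*, *Ptpn1*, *Ptpn11*, *Il6ra* and *Il6st*, were taken for their place in the pathway. The array annotation gave 9 of the 10 genes a probe-set of their own, out of 14860 genes with such a probe-set in the series. It paired no probe-set with *Il6ra*, which is therefore not analysed here.

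All 8 mice were male, of strain C57Bl6J and, per the study's methods, wild type for *Dnmt1*. They entered the diets at 6 weeks of age. The 4 mice of the alcohol group (WA-811, WA-817, WA-833 and WA-836) received a Lieber-DeCarli liquid diet for 6 weeks, with 2.06% alcohol for 3 days, 4.18% for 4 days and, per the labels, 6.2% for the last 5 weeks, when alcohol made up 35% of calories. The study's methods give a slightly higher percentage than the labels for these 5 weeks, and tie the 35% of calories to that percentage. The 4 control mice (WC-820, WC-824, WC-834 and WC-840) were pair-fed an alcohol-free liquid diet of equal calories, in which maltose and dextrin took the place of alcohol. RNA of each liver was hybridized to 1 Affymetrix Mouse Exon 1.0 ST array, and each value below is the log2 expression that the RMA method computed from the probes of a probe-set. The median of an array was 5.096 to 5.141 for the alcohol fed mice and 5.039 to 5.079 for the control mice, and the correlation between any pair of arrays was 0.977 to 0.987.

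Leptin is a hormone of fat cells that reports energy stores to the brain and to other organs. The long form of its receptor binds the kinase JAK2, which phosphorylates the receptor and the transcription factor STAT3. STAT3 then induces its own brake, SOCS3. Short forms of the receptor lack most of the signaling tail and the soluble form lacks all of it. The liver is a known source of the soluble form in mouse plasma. Interleukin 6 and related cytokines reach STAT3 through gp130, the product of *Il6st*, and JAK kinases, and in hepatocytes this route drives the acute phase response. A probe-set of the array sums exons of a gene, so the forms of the receptor cannot be told apart in these values.

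*Lepr* and *Leprot* are neighbours on chromosome 4, and *Leprot* encodes a small membrane protein, endospanin 1, that lowers the amount of leptin receptor at the cell surface. Their start regions are shown because the pair lies side by side, and that of *Socs3* because the gene is a known target of STAT3. The sequences are from RefSeq, build GRCm38.p6, and each runs from 250 bases before an annotated start to 50 after it, 5′ to 3′ on the strand of the gene. Capitals mark matches on either strand to GGGCGG, a GC box, or to TTCNNNGAA, the palindrome that STAT proteins bind.
*Leprot*, chr4:101647533-101647832, plus strand: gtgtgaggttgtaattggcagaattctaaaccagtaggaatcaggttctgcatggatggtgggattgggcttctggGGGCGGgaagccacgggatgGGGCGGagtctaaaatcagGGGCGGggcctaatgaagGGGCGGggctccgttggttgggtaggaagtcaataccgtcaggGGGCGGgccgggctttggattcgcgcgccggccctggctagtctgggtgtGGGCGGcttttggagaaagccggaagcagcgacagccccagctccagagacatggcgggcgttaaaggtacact
*Lepr*, first start, chr4:101717157-101717456, plus strand: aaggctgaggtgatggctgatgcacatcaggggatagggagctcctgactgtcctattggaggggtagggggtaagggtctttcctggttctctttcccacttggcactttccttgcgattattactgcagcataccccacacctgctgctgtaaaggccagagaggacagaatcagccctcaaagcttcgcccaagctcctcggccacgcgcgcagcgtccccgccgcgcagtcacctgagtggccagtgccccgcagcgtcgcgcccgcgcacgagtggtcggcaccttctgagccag
*Lepr*, second start, chr4:101717656-101717955, plus strand: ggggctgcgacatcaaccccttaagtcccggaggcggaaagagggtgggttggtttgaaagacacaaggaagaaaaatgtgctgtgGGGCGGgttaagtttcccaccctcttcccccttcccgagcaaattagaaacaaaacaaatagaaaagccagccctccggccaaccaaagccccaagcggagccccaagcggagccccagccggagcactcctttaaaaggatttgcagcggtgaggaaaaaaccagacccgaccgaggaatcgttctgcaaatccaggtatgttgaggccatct
*Socs3*, chr11:117969317-117969616, minus strand: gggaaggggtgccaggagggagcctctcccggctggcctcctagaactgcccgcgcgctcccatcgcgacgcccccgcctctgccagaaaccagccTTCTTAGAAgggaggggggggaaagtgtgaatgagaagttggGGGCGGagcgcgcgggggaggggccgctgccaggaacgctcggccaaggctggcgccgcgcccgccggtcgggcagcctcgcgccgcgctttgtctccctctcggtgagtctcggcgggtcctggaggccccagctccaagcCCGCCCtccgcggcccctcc

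The *Leprot* window held 6 GC boxes, the second *Lepr* window 1 and the first *Lepr* window none. GGGCGG was found in 35.7% of all 32851 windows of this length. TTCNNNGAA was found in 8.30% of all windows, in 1 of the 10 windows of the members and there in that of *Socs3*. Neither *Lepr* window held these letters, which says only that they are not in these 300 bases. The *Lepr* windows held 18 and 13 CpG dinucleotides and the *Leprot* window 18, against a median of 7 over all windows. Of all windows 70.3% held fewer than the first *Lepr* and the *Leprot* window, and 62.1% fewer than the second *Lepr* window. RefSeq windows were found for 9 of the 10 members, with 2 for *Lepr*. No motif overlapped the other, and a match is a description of letters and not of binding.

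*Lepr* had log2 values of 7.70 in WA-811, 8.47 in WA-817, 7.90 in WA-833 and 6.95 in WA-836, and of 5.40 in WC-820, 4.68 in WC-824, 4.28 in WC-834 and 4.65 in WC-840. Every alcohol fed mouse lay above every control mouse, with WA-836 the lowest of the alcohol group and WC-820 the highest of the controls. The means were 7.75 ± 0.63 in alcohol fed mice and 4.75 ± 0.47 in control mice (SD, n = 4 each), a difference of 3.00 or 7.99-fold. It ranked 6 by size of the rise among the 10430 probe-sets kept by the filter on low values, of which 14 had a rise of at least 2 on the log2 scale. In whole liver more cells of a type and more RNA in each cell cannot be told apart, here and in every comparison that follows. The filter level was a log2 value of 5.56, and all 4 control values of *Lepr* lay under it, so the probe-set was kept through the alcohol fed mice alone and the fold may be understated. With 1 mouse left out the difference lay between 2.76, without WA-817, and 3.27, without WA-836.

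**Figure D1:**
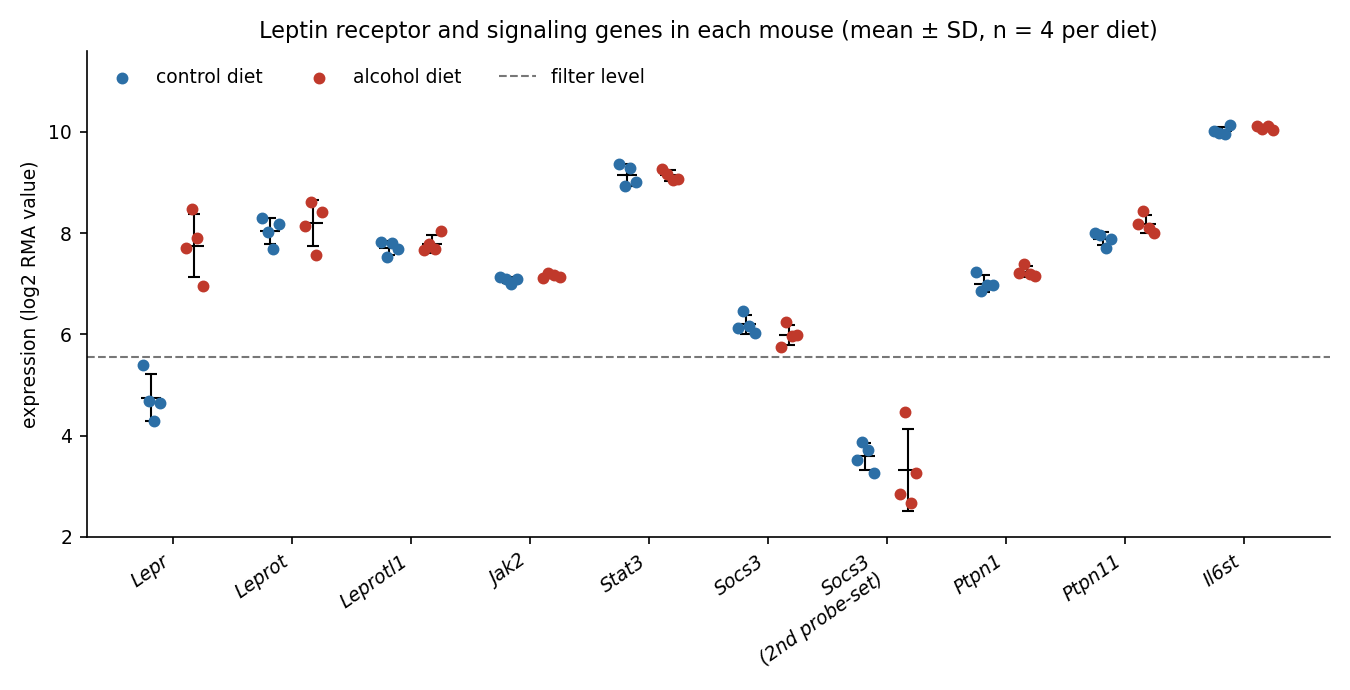
Log2 RMA value (vertical axis) of each probe-set of the members in each mouse, with control mice in blue and alcohol fed mice in red; black bars are the mean ± SD of 4 mice and the dashed line is the filter level of 5.56. The *Lepr* values separate by diet (6.95 to 8.47 against 4.28 to 5.40), the other members lie near each other on both diets, and levels are not comparable between probe-sets.

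No other member was called between the diets. A call here means a Benjamini-Hochberg adjusted p under 0.05 over all 10430 probe-sets in limma, a linear model that draws the variance of single probe-sets toward a common value. By this rule alcohol feeding went with a higher level of 10.2% and a lower level of 5.98% of all probe-sets tested, so that higher ones made up 62.9% of the calls, or 51.8% after quantile normalization and 45.1% after median centring. Of the 8 other members tested 0 were higher and 0 were lower. At the thresholds of the study, P of 0.0001 with at least 1.5-fold, 1.01% of all probe-sets were higher and 0.757% lower, and again 0 of the 8 members. Their median difference was 0.08, beside 0.05 for all probe-sets tested, and 6 of the 8 had a positive difference, beside 60.0% of all, though that of *Il6st* was -0.0018 after median centring. The 95% interval of the difference lay within 1.5-fold in either direction for 7 of the 8 members, as it did for 76.6% of all probe-sets tested.

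**Figure D2:**
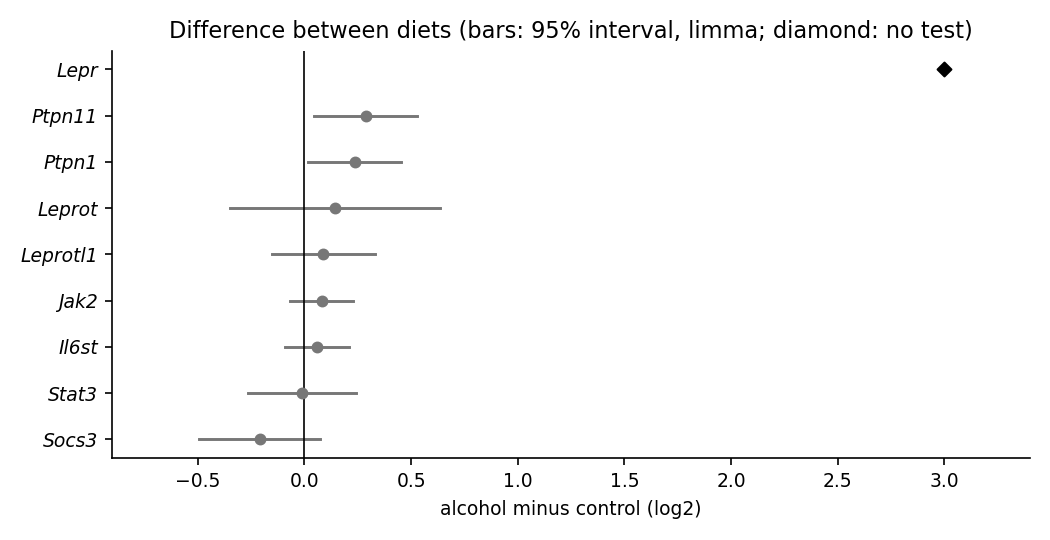
Difference of the mean log2 value between the alcohol and the control diet (horizontal axis) for the 9 members kept by the filter, with the 95% interval from limma as a bar. *Lepr*, at 3.00, is a diamond without an interval because it was chosen by this value, and the other members lie between -0.21 and 0.29.

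*Leprot*, next to *Lepr* on the chromosome, was not called. Its log2 values were 8.14, 8.62, 7.57 and 8.42 in WA-811, WA-817, WA-833 and WA-836, and 8.29, 8.03, 7.69 and 8.18 in WC-820, WC-824, WC-834 and WC-840. The diets overlapped, and WA-833, the second highest of all mice for *Lepr*, was the lowest of all for *Leprot*. The difference of 0.14 had a 95% interval of -0.35 to 0.64 (adjusted p = 0.696 from limma), the widest among the 8, whose upper bound is 1.55-fold. It moved between 0.0005 without WA-817 and 0.35 without WA-833. *Leprotl1*, which encodes the related endospanin 2, had values of 7.66 to 8.05 in the alcohol fed and 7.52 to 7.82 in the control mice, with a difference of 0.09 and an interval of -0.15 to 0.33 (adjusted p = 0.620 from limma). Without WA-836 the difference was 0.0032 and without WC-824 it was 0.03.

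The kinase and the transcription factor of the pathway were not called. *Jak2* had log2 values of 7.10, 7.21, 7.18 and 7.12 in the alcohol fed mice and 7.13, 7.09, 6.99 and 7.09 in the control mice, in the order of mice given above. Its difference was 0.08, with an interval of -0.07 to 0.23 (adjusted p = 0.439 from limma), so the upper bound corresponds to 1.17-fold, and without WC-834 the difference was 0.05. *Stat3* had log2 values of 9.27, 9.17, 9.04 and 9.08 in the alcohol fed mice and 9.37, 8.93, 9.29 and 9.003 in the control mice. The alcohol fed mice lay inside the range of the controls, which was the wider. Its difference of -0.01 had an interval of -0.26 to 0.24 (adjusted p = 0.966 from limma), and its sign turned to 0.07 with array weights.

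*Socs3*, the inhibitor that STAT3 induces, had log2 values of 5.74, 6.24, 5.97 and 5.99 in the alcohol fed mice and 6.12, 6.47, 6.16 and 6.03 in the control mice. Among the alcohol fed mice 3 lay under all controls, and WA-817 lay within the range of the controls. The difference of -0.21 had an interval of -0.49 to 0.07 (adjusted p = 0.285 from limma), whose upper bound is 1.05-fold. It was -0.12 without WC-824, -0.13 without WA-811 and -0.30 without WA-817. The annotation names a second *Socs3* probe-set, which lay below the filter with values of 2.68 to 4.47 in the alcohol fed and 3.26 to 3.87 in the control mice (adjusted p = 0.772 in the fit of all probe-sets).

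Both phosphatases had positive differences that failed the adjustment. *Ptpn11* encodes SHP2, which docks on the activated receptor and passes the signal to the ERK kinases, and its values were 8.17, 8.43, 8.09 and 8.007 in the alcohol fed mice and 8.005, 7.95, 7.71 and 7.88 in the control mice. The diets did not overlap, although WA-836 lay barely above WC-820, and 15.5% of all probe-sets tested were likewise higher in every alcohol fed mouse. The difference was 0.29 with an interval of 0.05 to 0.53 (unadjusted p = 0.0241 and adjusted p = 0.0982 from limma). An exact permutation test, two-sided, gave p = 0.0286, the smallest that 4 mice against 4 allow. *Ptpn1* encodes PTP1B, which removes phosphate from JAK2, and its values were 7.22, 7.39, 7.20 and 7.14 against 7.23, 6.85, 6.97 and 6.97, with WC-820 inside the alcohol range. Its difference was 0.23 with an interval of 0.02 to 0.45 (unadjusted p = 0.0371, adjusted p = 0.128 from limma).

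*Il6st*, the signaling chain shared by receptors of the interleukin 6 family, had values of 10.11, 10.06, 10.11 and 10.04 in the alcohol fed mice and 10.02, 9.98, 9.95 and 10.13 in the control mice. WC-840 was the highest of all 8 mice. The difference of 0.06 had an interval of -0.09 to 0.21 (adjusted p = 0.594 from limma), so the bounds stay within 1.16-fold, and the difference was 0.04 without WC-834 and 0.09 without WC-840.

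Other genes of the pathway were read from a list of 54 ligands, receptors, kinases, STAT factors, adaptors and inhibitors. Of these 44 had a probe-set of their own, 2 shared one with other genes and 36 passed the filter. At an adjusted p under 0.05 from limma 4 were higher and 1 was lower, which is 11.1% and 2.78% of the 36, near the shares of all probe-sets. Their median difference was 0.08. The counts depended on single mice: without any 1 of WC-824, WC-834, WC-840, WA-817 and WA-836 only 2 genes were higher.

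The gene that fell was *Lifr*, the receptor chain that pairs with gp130 to bind leukemia inhibitory factor. Its log2 values were 9.35, 9.55, 9.45 and 9.47 in the alcohol fed mice and 10.36, 10.20, 10.33 and 10.45 in the control mice. The diets were wide apart beside the spread within each, with a difference of -0.88 ± 0.08 (standard error, n = 4 mice each), a 1.84-fold fall (adjusted p = 4.2e-04 from limma, between 2.3e-04 and 0.00653 over 16 other settings). *Osmr*, the oncostatin M receptor that also pairs with gp130, was not called, with 5.44 to 5.82 under alcohol and 5.12 to 5.36 in controls, mostly under the filter level (adjusted p = 0.126 in the fit of all probe-sets). The ligands *Lep* (2.005 to 2.95 over all mice) and *Il6* (1.43 to 1.83) lay far below the filter level.

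Both catalytic subunits of AMPK, the energy sensor that leptin can activate in muscle, rose. *Prkaa1* rose by 0.47 ± 0.08 (standard error, adjusted p = 0.00582) and *Prkaa2* by 0.58 ± 0.12 (adjusted p = 0.0119), both from limma and both without overlap of the diets. *Irs1*, an adaptor of insulin signaling, rose 1.48-fold (adjusted p = 0.0359), and *Socs1*, an inhibitor of JAK kinases, rose 1.27-fold (adjusted p = 0.0292), each from limma. The diets overlapped for *Irs1*, with WA-811 at 7.63 below WC-820 at 7.67, and did not overlap for *Socs1*. The call of *Irs1* was lost in 9 of 16 other settings and that of *Socs1* in 8, with adjusted p up to 0.112 and 0.0932. Both were lost without any 1 of WC-824, WC-834, WC-840, WA-817 and WA-836, and that of *Irs1* without WA-833 as well.

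Other JAK and STAT genes were not called. *Jak1* had a difference of 0.08 (adjusted p = 0.585), *Tyk2* one of 0.07 (adjusted p = 0.477), *Stat5a* one of 0.06 (adjusted p = 0.689) and *Stat5b* one of 0.04 (adjusted p = 0.836), all from limma, and the 95% intervals of these 4 genes lay between -0.20 and 0.29. *Sh2b1*, an adaptor that enhances JAK2 activity, had a difference of 0.0047 with an interval of -0.15 to 0.16, and *Ptpn2*, another phosphatase of JAK and STAT proteins, one of 0.18 (adjusted p = 0.182 from limma). In contrast, *Cish* and *Socs2*, inhibitors that STAT5 induces, varied widely between mice of 1 diet. *Cish* ranged from 5.32 to 8.46 in the alcohol fed and from 5.23 to 8.60 in the control mice, and *Socs2* from 5.94 to 9.003 and from 7.51 to 8.97. Their intervals, -1.42 to 2.10 and -2.12 to 0.55, leave a large change in either direction for *Cish* and a large fall for *Socs2* undetected.

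**Figure D3:**
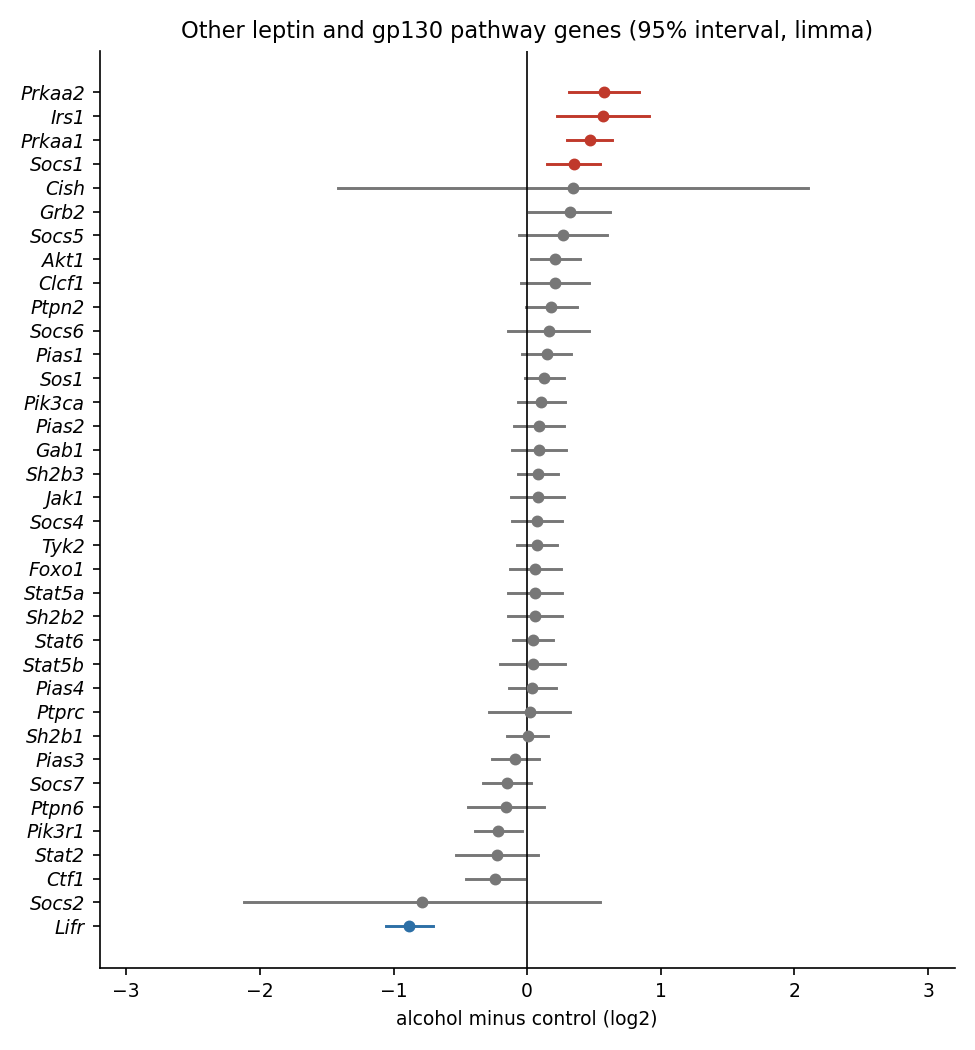
Difference of the mean log2 value between the alcohol and the control diet (horizontal axis) for the 36 other pathway genes that passed the filter, with the 95% interval from limma. Red marks the 4 genes that were higher, blue *Lifr*, which was lower (-0.88), and grey the 31 that were not called, among which *Cish* and *Socs2* have the widest intervals.

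Genes that STAT3 induces in liver, acute phase proteins included, were read from a list of 40, of which 30 passed the filter. By limma 1 was higher and 1 was lower, 3.33% of the 30 in each direction beside 10.2% and 5.98% of all probe-sets tested, and the median difference was 0.00 beside 0.05. The higher count was 2 without any 1 of WA-817, WC-820, WA-833 and WA-836, and the lower count was 3 without WA-811 and 2 without WA-817. *Lbp*, which presents bacterial endotoxin to its receptor, had values of 10.30, 10.58, 10.30 and 11.04 in the alcohol fed mice and 9.88, 9.23, 9.60 and 9.35 in the control mice. It rose 2.06-fold with no overlap of the diets (adjusted p = 0.00835 from limma, at most 0.0400 over 16 other settings). *Steap4*, a metalloreductase, fell by 0.58 ± 0.13 (standard error, adjusted p = 0.0162 from limma), a call lost without the filter and without moderation of the variance. Of the 28 genes not called, a few are named here after their values were seen. *Lcn2*, lipocalin 2, had the largest difference of the list, 1.61 or 3.05-fold, with 7.81, 7.63, 7.37 and 10.12 in the alcohol fed mice and 7.26, 6.33, 6.41 and 6.499 in the control mice. The diets did not overlap and WA-836 lay far above the rest (adjusted p = 0.0740 from limma, with a call when WA-836 was left out or arrays were weighted). *Apcs*, serum amyloid P, had a difference of -0.48 without overlap (adjusted p = 0.0616 from limma). The fibrinogen genes *Fga*, *Fgb* and *Fgg* had differences of -0.06, -0.09 and -0.05. *Myc* had a difference of 1.27 or 2.41-fold with overlap of the diets (adjusted p = 0.188 from limma). *Pim1*, *Pim3* and *Junb* had differences of -0.53, -0.43 and -0.38, likewise with overlap (adjusted p = 0.0840, 0.111 and 0.0982 from limma). *Saa1*, *Saa2* and *Hamp* had only probe-sets shared with other genes and were not read.

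A list of 25 liver genes that leptin or fasting regulate gave 22 tested genes. Of these 4 were higher and 2 were lower by limma, which is 18.2% and 9.09% of the 22 beside 10.2% and 5.98% of all probe-sets tested, and the median difference was 0.22 beside 0.05. The list mixes genes that leptin represses with genes that it induces. The counts and the median therefore give no direction of leptin action. *Scd1*, the desaturase that leptin represses in liver, fell by 0.38 ± 0.08, and *Cpt1a*, carnitine palmitoyltransferase of the liver, by 0.57 ± 0.11, while *Scd2*, another desaturase, rose by 0.74 ± 0.10, *Fst*, follistatin, by 0.99 ± 0.23, *Acaca*, acetyl-CoA carboxylase, by 0.68 ± 0.15 and *Mttp*, which loads lipid on lipoproteins, by 0.35 ± 0.08 (standard errors, n = 4 mice on each diet, adjusted p from 0.00348 to 0.0211 from limma). Of the 16 genes not called, a few are likewise named after their values were seen. *Pdk4*, a kinase that inhibits pyruvate dehydrogenase, had a difference of 0.77 without overlap of the diets (adjusted p = 0.0566), *Ppargc1a*, a coactivator of fasting genes, one of 0.57 (adjusted p = 0.0661) and *Cidec*, a lipid droplet protein, one of -0.71 (adjusted p = 0.0777), all from limma. The gluconeogenic genes *G6pc* and *Pck1* had differences of 0.47 (adjusted p = 0.265) and 0.01 (adjusted p = 0.960), and *Igfbp2*, which leptin induces in liver, one of 0.07 (adjusted p = 0.774), all from limma. The calls of *Fst*, *Mttp*, *Scd1* and *Acaca* were lost without the filter, and those of *Fst* and *Acaca* also without moderation. Single mice mattered too. That of *Fst* was lost without any 1 of WC-824, WC-834 and WC-840, that of *Mttp* without WC-834 or WC-840 and that of *Scd1* without WC-824. Adjusted p from limma was at most 0.0767 for *Fst*, *Mttp* and *Scd1* and at most 0.0577 for *Acaca*. The count of higher genes in this list was 2 without WC-834 and 2 without WC-840, and that of lower genes was 1 without WC-824 and 4 without WA-833.

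**Figure D4:**
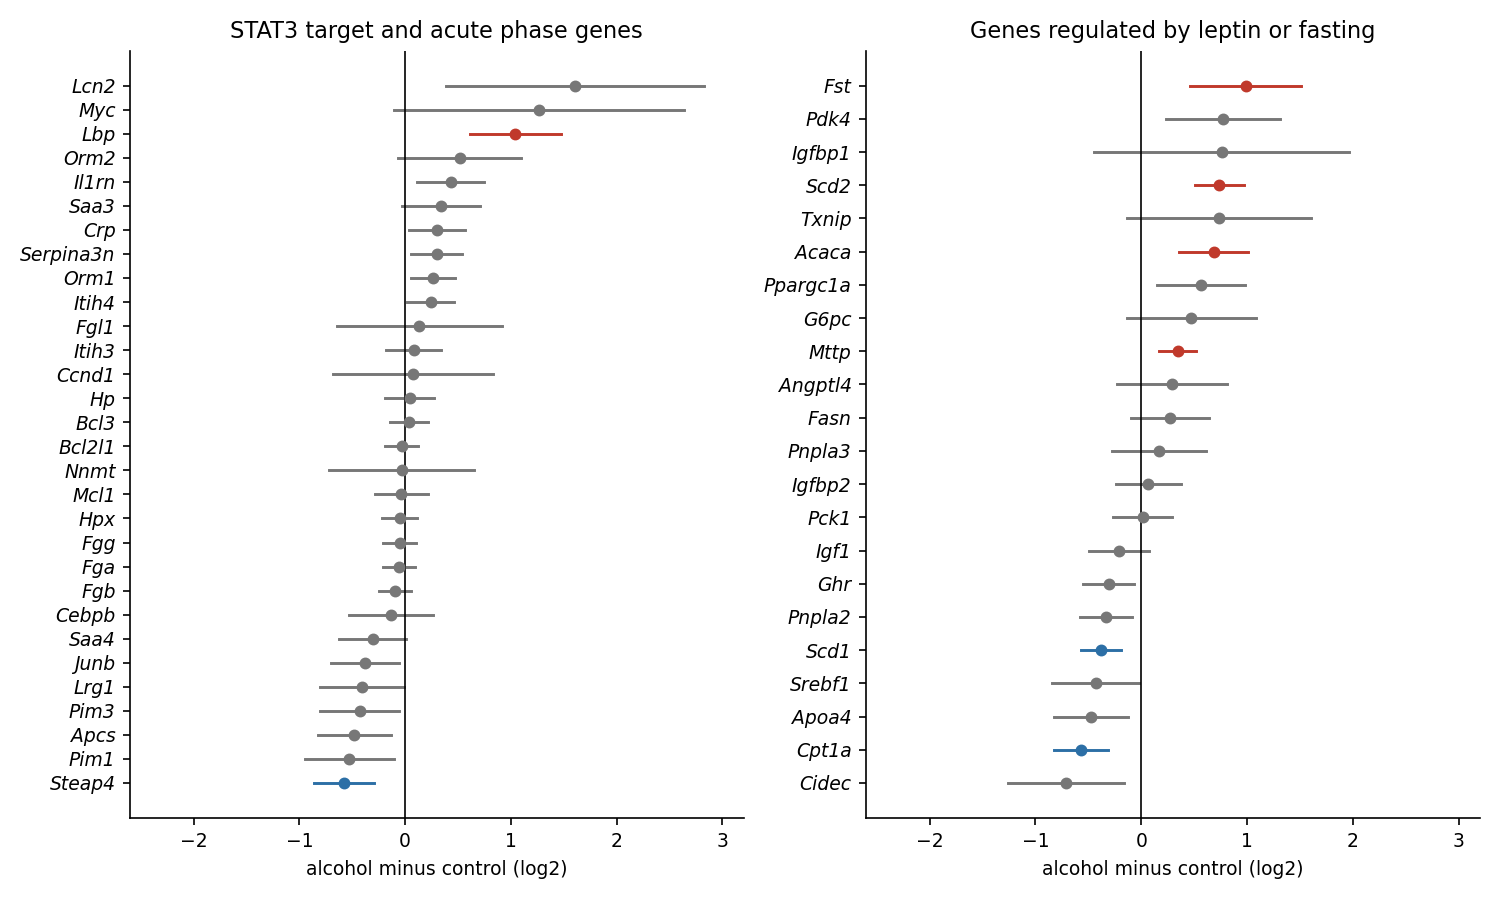
Difference of the mean log2 value between the diets (horizontal axis, alcohol minus control) for 30 STAT3 target and acute phase genes (left) and 22 genes regulated by leptin or fasting (right), with the 95% interval from limma. Red marks genes that were higher, blue genes that were lower and grey genes not called; *Lbp* is the 1 higher gene on the left.

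Markers of liver cells were read in the same arrays, beside the *Lepr* difference. Of all probe-sets tested 10.2% were higher and 5.98% lower, and 15.5% were higher without overlap of the diets. Of 7 markers of sinusoidal endothelial cells 2, or 28.6%, were higher by limma, *Lyve1* by 1.23 and *Clec4g* by 0.47 (log2). The other 5 were not called, with differences from 0.08 to 0.25. The mean level of the 7 was 8.28 to 8.69 under alcohol and 8.11 to 8.20 in the control mice, without overlap. That mean includes *Lyve1*, which had the largest difference of the 7, and the share of 15.5% is of single probe-sets and not of such means. Taken singly, *Lyve1*, *Clec4g*, *Pecam1* and *Kdr* did not overlap, while *Stab1*, *Stab2* and *Oit3* did. The uncalled markers are named here after their values were seen. Of 7 tested markers of stellate cells *Lrat* was higher by 0.54 and *Reln* lower by 0.34, which is 14.3% in each direction. The call of *Reln* was lost without the filter, without WC-824 and without WC-840. Mean levels of the 8 listed markers were 6.69 to 6.83 under alcohol and 6.61 to 6.75 in the control mice. None of 8 markers of Kupffer cells (7.70 to 8.24 and 7.70 to 8.30) and none of 5 of hepatocytes (12.3 to 12.4 and 12.1 to 12.3) was called. All 5 markers each of neutrophils and of T, NK and B cells, 4 of 5 of adipocytes and 2 of 3 of cholangiocytes lay below the filter. The part of any of these cells in the *Lepr* difference was not tested.

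The genes whose profile lay nearest to that of *Lepr* were *Nqo1*, *Tuba8*, *Gadd45b*, *Asns* and *Fmo2*. Likeness was the mean absolute difference over the 8 arrays between a gene and *Lepr*, each taken relative to its own control mean, and 7757 genes were compared. It was 0.57 for *Nqo1*, a quinone reductase, 0.58 for *Tuba8*, an alpha tubulin, 0.68 for *Gadd45b*, a stress-induced growth regulator, 0.68 for *Asns*, asparagine synthetase, and 0.72 for *Fmo2*, a flavin monooxygenase (log2). The measure follows mainly the size of the rise, by which *Lepr* was chosen, so genes with a rise of like size come out near. Correlation with *Lepr* was also taken over the deviations of the mice from the mean of their diet. It was -0.10 for *Nqo1*, 0.44 for *Tuba8*, -0.17 for *Gadd45b*, -0.51 for *Asns* and 0.09 for *Fmo2*. The order of the alcohol fed mice was not that of *Lepr* in any of the 5 genes. WA-836, the lowest of them for *Lepr* at 2.19 above the control mean, was the highest for *Nqo1* at 3.01. Of the tested members *Ptpn11* came nearest, at rank 870.

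**Figure D5:**
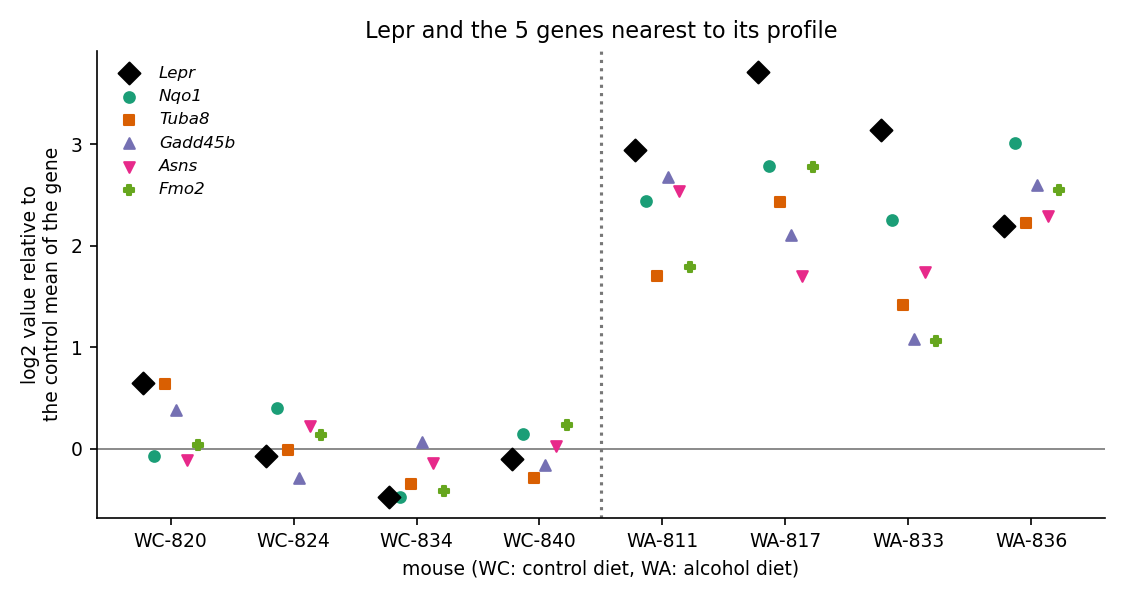
Log2 value relative to the control mean of each gene (vertical axis) in each control (WC) and alcohol fed (WA) mouse, for *Lepr* (black diamonds) and the 5 genes nearest to it. All 6 genes lie above 1 in every alcohol fed mouse, and *Lepr* is the highest of the 6 in WA-811, WA-817 and WA-833 and the lowest in WA-836.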

How the data were processed

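Liver RNA of 8 mice, 4 on each diet, was read on Mouse Exon 1.0 ST arrays of Affymetrix. The deposited values are log2 expression that the authors computed with RMA in Affymetrix Expression Console, 1 value for each of 23332 probe-sets and array, with no counts or detection calls, so that precision rests on the number of mice. The genome build behind the probe-sets is not given in the sources used here. Genes were named by the platform annotation: 14996 probe-sets had 1 gene symbol, 1019 had several and were not read as genes, and 7317 had none.

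Probe-sets were ranked on the fourth-highest of their 8 values and the top 10430 were kept, as many as the study's methods state, and the diets were compared with limma 3.58.1 (lmFit and eBayes, 6 residual degrees of freedom) in R 4.3.3, with Benjamini-Hochberg adjustment over all of them. Genes below the filter were read from a fit of all probe-sets. Each array is 1 mouse, and the labels give no litter, batch or pairing. *Lepr* was not tested, since it was chosen by its difference. The members, gene lists and marker lists were chosen with earlier results of these data known. The genes named were the members, up to 6 called genes of each list with the largest difference, JAK and STAT genes, ligands, receptors and inhibitors listed by name, called markers, the 5 genes nearest to *Lepr*, and the 3 highest and 3 lowest by correlation; exceptions are marked where they stand. As alternatives the filter was dropped or set on the mean, the arrays were weighted, quantile normalized or centred on their medians, the variance was fitted with a trend, robustly or unmoderated, each mouse was left out in turn, and the exact permutation test was run. The code was tested on simulated data. Promoter windows were those of RefSeq, GRCm38.p6, searched on both strands.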

Additional observations from a re-analysis of the deposited data

Results flagged for a closer look

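In all 238 groups were examined, each the 4 mice of 1 diet for 1 probe-set, so the same mice recur. They covered the members, the genes of the 3 pathway lists, the called markers and the 5 genes nearest to *Lepr*. A mouse lay far from the other 3 when its gap to the nearest of them was large beside the range of the 4. Such a mouse was found in 14 groups, where chance gives about 1 group in 20. The count is thus near that of chance, and the 14 are listed as a description only. WA-836 was the highest of its diet for *Lcn2*, at 10.12 against 7.37 to 7.81 in the other 3, and the lowest for *Fgg*, at 12.65. WA-817 was the highest for *Pik3ca* (8.41), *Pias4* (7.01), *Igf1* (10.03) and *Lep* (2.95, below the filter level). WA-833 was the lowest for *Steap4* (9.25) and *Il27ra* (5.09). Among the control mice, WC-834 was the lowest for *Socs2*, at 7.51 against 8.75 to 8.97 in the other 3, and for *Tyk2* (6.44), and the highest for *Cebpb* (7.89) and *Fos* (4.81). WC-840 was the lowest for *Il1rn* (5.90) and WC-820 for *Fasn* (10.67). No mouse was far from the others in this way for *Lepr* or any other member.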

How the results depend on the processing

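The *Lepr* difference of 3.00 was 2.96 after quantile normalization, 2.94 after median centring and 2.76 to 3.27 with 1 mouse left out. No other member passed an adjusted p of 0.05 in any of the 16 other limma fits, and the lowest adjusted p was 0.0529 for *Ptpn1* and 0.0766 for *Ptpn11*. By the exact permutation test without adjustment 1 member, *Ptpn11*, was higher. With 4 mice on each diet this says only that the diets did not overlap. The same held, in this direction, for 15.5% of all probe-sets tested. *Stat3* changed sign to 0.0672 with array weights and lay between -0.0843 and 0.0643 with 1 mouse left out, and *Il6st* was -0.0018 after median centring. Of the pathway genes 2 were higher without the filter, without moderation and after median centring, where 2 were lower, and 2 to 4 were higher with 1 mouse left out. Of the STAT3 targets 3 were higher with array weights and 1 to 2 with 1 mouse left out. None (0) was lower without the filter or moderation, 2 were lower with array weights, quantile normalization or median centring, and 1 to 3 with 1 mouse left out. Of the genes regulated by leptin or fasting 1 was higher without the filter, 2 without moderation, 6 with array weights and 2 to 5 with 1 mouse left out, and 1 was lower without the filter, 5 after quantile normalization, 4 after median centring and 1 to 4 with 1 mouse left out. Over all probe-sets 1059 were higher and 624 lower, against 488 and 285 without the filter, 809 and 382 without moderation, and 595 to 1086 and 362 to 557 with 1 mouse left out, the fewest higher without WC-824. The cause of these changes was not tested. No paired analysis was possible because the labels pair no mice across the diets.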

Other observations

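Within the diets, the members varied with *Lepr* to unequal degrees. Over the 8 mice, each taken as its deviation from the mean of its diet, the correlation with *Lepr* was 0.88 for *Ptpn11*, 0.80 for *Jak2*, 0.80 for *Ptpn1*, 0.28 for *Leprot*, 0.28 for *Stat3*, 0.23 for *Socs3*, 0.19 for *Il6st* and -0.33 for *Leprotl1*. The highest among 7757 genes were 0.990 for *F10*, coagulation factor X, 0.980 for *Prpf4b* and 0.972 for *Dus3l*, and the lowest -0.974 for *Mpzl2*, -0.960 for *Zdhhc24* and -0.959 for *Erg28*. Of the 7757 genes, 1.55% had a correlation at least as high as *Ptpn11*, 4.56% as *Jak2* and 4.58% as *Ptpn1*. All 4 control values of *Lepr* lay under the filter level, so 4 of the 8 deviations come from low signal. These are descriptions over 8 arrays, whose values share the array and its normalization, and no test was made of them.

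On chromosome 4, in the order of RefSeq, *Ak4*, an adenylate kinase of mitochondria that lies 3 genes before *Lepr*, was higher on the alcohol diet by 0.64 (adjusted p = 0.0413 from limma), with 9.15 to 9.78 against 8.41 to 9.17, so that the diets overlapped slightly. The call of *Ak4* was not followed over the other settings, and 10.2% of all probe-sets tested were higher. *Dnajc6*, between *Ak4* and *Leprot*, lay at 2.84 to 3.18 and 2.96 to 3.09, below the filter level. Of the 3 genes after *Lepr*, *C130073F10Rik* had a probe-set of its own and lay at 2.32 to 2.63 and 2.51 to 2.82.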
